A study of Homo sapiens with 9 samples.

Results

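The 7 genes described here encode the transforming growth factor beta (TGF-β) ligands TGFB1, TGFB2 and TGFB3 and the latent TGF-β binding proteins LTBP1, LTBP2, LTBP3 and LTBP4. They were chosen by name, and each matched 1 row of a table of fragment counts for 60676 genes. RNA sequencing was done on A549 cells, an established line from a human lung adenocarcinoma. One group carried the short hairpin RNA shLITATS1-1 and another the independent hairpin shLITATS1-2, both directed against the long noncoding RNA LITATS1. The control group carried the non-targeting hairpin shNT. In all 3 groups the hairpin came from a lentivirus, puromycin was added after 2 days of culture to select carriers, and RNA was taken 3 days later. Each group held 3 libraries called biological replicates in the design, with nothing said of separate transductions, so p-values measure only the spread between these libraries, which may be technical.

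TGF-β is secreted in a latent form. A furin-type convertase cuts the precursor, and the propeptide stays wrapped around the mature dimer. LTBP1, LTBP3 and, less efficiently, LTBP4 bind that propeptide through a disulfide bond and tether it to fibrillin and fibronectin in the matrix, whereas LTBP2 is a fibrillin-binding relative that does not carry the ligand. Integrins with an αv subunit, thrombospondin and proteases then release active TGF-β, which in carcinoma cells of epithelial origin is best known for arrest of growth and for epithelial-mesenchymal transition.

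Each library held 19610514 to 19989652 fragments assigned to genes, and 15500 genes had enough counts to be tested, among them all 7 described here. LITATS1 (ENSG00000233621, chromosome 1, 37454879 to 37474411, minus strand, GRCh38) checked the labels. It had 72, 61 and 57 fragments with shLITATS1-1 and 69, 63 and 56 with shLITATS1-2, against 274, 283 and 328 with shNT. The level left was 22.0% and 19.96% of that in shNT. Keratin genes KRT7, KRT8 and KRT18 and the A549 genes AKR1B10, NQO1 and ALDH1A1 were abundant. EPCAM, from the same list of 12, was low. It had 4.91 CPM (gene fragments scaled to a common library depth with TMM factors) with shLITATS1-1, 4.49 with shLITATS1-2 and 4.22 with shNT. The summed level of the 12 was 27788 to 28430 CPM with shLITATS1-1 and 16039 to 16527 with shLITATS1-2, against 22685 to 23267 with shNT. The alveolar genes SFTPC, SFTPB, SFTPA1 and NKX2-1 were near 0. LAMP3, from the same list, was low but called higher with both hairpins, at 0.929 CPM with shLITATS1-1 and 0.914 with shLITATS1-2, against 0.376 with shNT. Of 7 fibroblast markers, 5 stayed under 1 CPM in every library, COL1A2 and DCN among them, while THY1 reached 2.41 and LUM 3.89 CPM. The summed level of the 7 was 5.84 to 5.95 CPM with shLITATS1-1 and 2.07 to 2.64 with shLITATS1-2, against 3.02 to 3.59 with shNT. The immune markers PTPRC, CD3E, CD68 and LYZ and all 4 endothelial markers stayed under 1 CPM, with CD3E at 0. Unaligned fragments made up 5.56% and 5.43% of all fragments with the 2 LITATS1 hairpins and 3.79% with shNT, and mitochondrial genes took 10.2% of gene fragments with shLITATS1-1 and 7.97% with shLITATS1-2, against 12.2% with shNT. The part of these differences in the results below was not tested.

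TGFB1 (ENSG00000105329) lies on chromosome 19 from 41301587 to 41353911 on the minus strand, and LTBP4 (ENSG00000090006) on the same chromosome from 40592883 to 40629818 on the plus strand, with 0.672 Mb between them. TGFB3 (ENSG00000119699) lies on chromosome 14 from 75958099 to 75982991 and LTBP2 (ENSG00000119681) from 74498170 to 74612378, both on the minus strand and 1.35 Mb apart. TGFB2 (ENSG00000092969) is on chromosome 1 from 218346235 to 218444619 on the plus strand, LTBP1 (ENSG00000049323) on chromosome 2 from 32946972 to 33399509 on the plus strand, and LTBP3 (ENSG00000168056) on chromosome 11 from 65538805 to 65558930 on the minus strand. These coordinates are those of GENCODE 29 on GRCh38. The transcript TGFB2-OT1, on the same strand, covers 26.6% of the exon bases of TGFB2. Fragments there may have been set aside as ambiguous, so TGFB2 levels may be understated. HNRNPUL1 on the opposite strand shares 6.64% of the exon bases of TGFB1, and whether the counting used strand is not stated.

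The 250 bases before the first listed RefSeq start (GRCh38.p14) are shown for the principal ligand, TGFB1, and for the 3 genes with the largest rises with shLITATS1-1. All 4 rose with both hairpins. They are written 5′ to 3′ along each gene's strand. TGFB1 is read from chr19:41353923-41354172 (minus strand), TGFB2 from chr1:218345086-218345335 (plus), LTBP1 from chr2:32946703-32946952 (plus) and LTBP2 from chr14:74612238-74612487 (minus). The RefSeq starts differ from the GENCODE gene bounds given above. The LTBP2 window partly overlaps the GENCODE gene, and the TGFB2 window ends well upstream of the GENCODE start. Motif distances are counted from the RefSeq starts. Capitals mark matches to 6 motifs searched on both strands: the SMAD box CAGAC, the AP-1 site TGANTCA, the cyclic AMP response element TGACGTCA, the E-box CACGTG, the TATA box TATAAA and the GC box GGGCGG.
TGFB1: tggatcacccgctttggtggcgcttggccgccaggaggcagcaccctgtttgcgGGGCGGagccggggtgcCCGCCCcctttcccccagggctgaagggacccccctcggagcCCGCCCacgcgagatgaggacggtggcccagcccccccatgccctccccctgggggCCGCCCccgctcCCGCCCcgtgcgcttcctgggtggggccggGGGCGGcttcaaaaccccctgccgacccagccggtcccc
TGFB2: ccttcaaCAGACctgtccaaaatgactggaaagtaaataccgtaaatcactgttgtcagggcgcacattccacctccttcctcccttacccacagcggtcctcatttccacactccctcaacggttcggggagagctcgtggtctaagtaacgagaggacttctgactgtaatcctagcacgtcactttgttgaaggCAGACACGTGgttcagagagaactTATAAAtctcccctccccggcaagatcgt
LTBP1: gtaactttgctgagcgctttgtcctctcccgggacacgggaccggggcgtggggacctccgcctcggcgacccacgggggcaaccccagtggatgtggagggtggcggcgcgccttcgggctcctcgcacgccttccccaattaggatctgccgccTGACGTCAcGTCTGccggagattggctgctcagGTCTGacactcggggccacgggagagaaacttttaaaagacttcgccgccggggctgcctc
LTBP2: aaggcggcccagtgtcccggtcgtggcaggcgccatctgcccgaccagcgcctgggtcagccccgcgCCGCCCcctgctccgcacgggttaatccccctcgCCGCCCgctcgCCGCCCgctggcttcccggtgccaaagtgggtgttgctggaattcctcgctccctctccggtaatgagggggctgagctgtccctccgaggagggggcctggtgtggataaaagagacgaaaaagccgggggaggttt

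The 4 windows differed in their motifs. TGFB1 held 6 GC boxes and LTBP2 held 3, with none of the other 5 motifs in either. TGFB2 had SMAD boxes beginning 243 and 53 bases before the start, an E-box at 49 that shares 1 base with the nearer SMAD box, and a TATA box at 29. LTBP1 had a cyclic AMP response element beginning 94 bases before the start and SMAD boxes at 85 and 61. Across 34943 windows of the same length, 38.0% held a SMAD box, 42.5% a GC box, 10.8% a TATA box, 6.59% an AP-1 site, 6.32% an E-box and 1.63% the cyclic AMP response element. The RefSeq table lists 12 starts for the 7 genes, and none of the 12 windows had the AP-1 letters. The fragment counts do not tell the starts of LTBP1, LTBP3, LTBP4 or TGFB3 apart. TGFB3 windows held SMAD boxes, an E-box and a TATA box, those of LTBP3 a GC box each, and those of LTBP4 a SMAD box and GC boxes.

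With shLITATS1-1, 5 of the 7 genes were higher than with shNT and none was lower, where 30.5% of all tested genes were called higher and 30.5% lower. With shLITATS1-2, 6 of the 7 were higher and none was lower, against 27.8% and 28.9% of all tested genes. A gene was called when the p of the quasi-likelihood test of edgeR, adjusted over all tested genes by the Benjamini-Hochberg method, was under 0.05. In the 5 and 6 called genes every library of the hairpin lay above every shNT library, a pattern shown by 32.2% of tested genes with shLITATS1-1 and 29.4% with shLITATS1-2. The median log2 fold change of the 7 genes was 0.43 with shLITATS1-1 and 0.45 with shLITATS1-2, and that of all tested genes was -0.0070 and -0.0040. Both comparisons use the same 3 shNT libraries. In bulk RNA, more cells expressing a gene and more RNA per cell cannot be told apart.

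**Figure D1:**
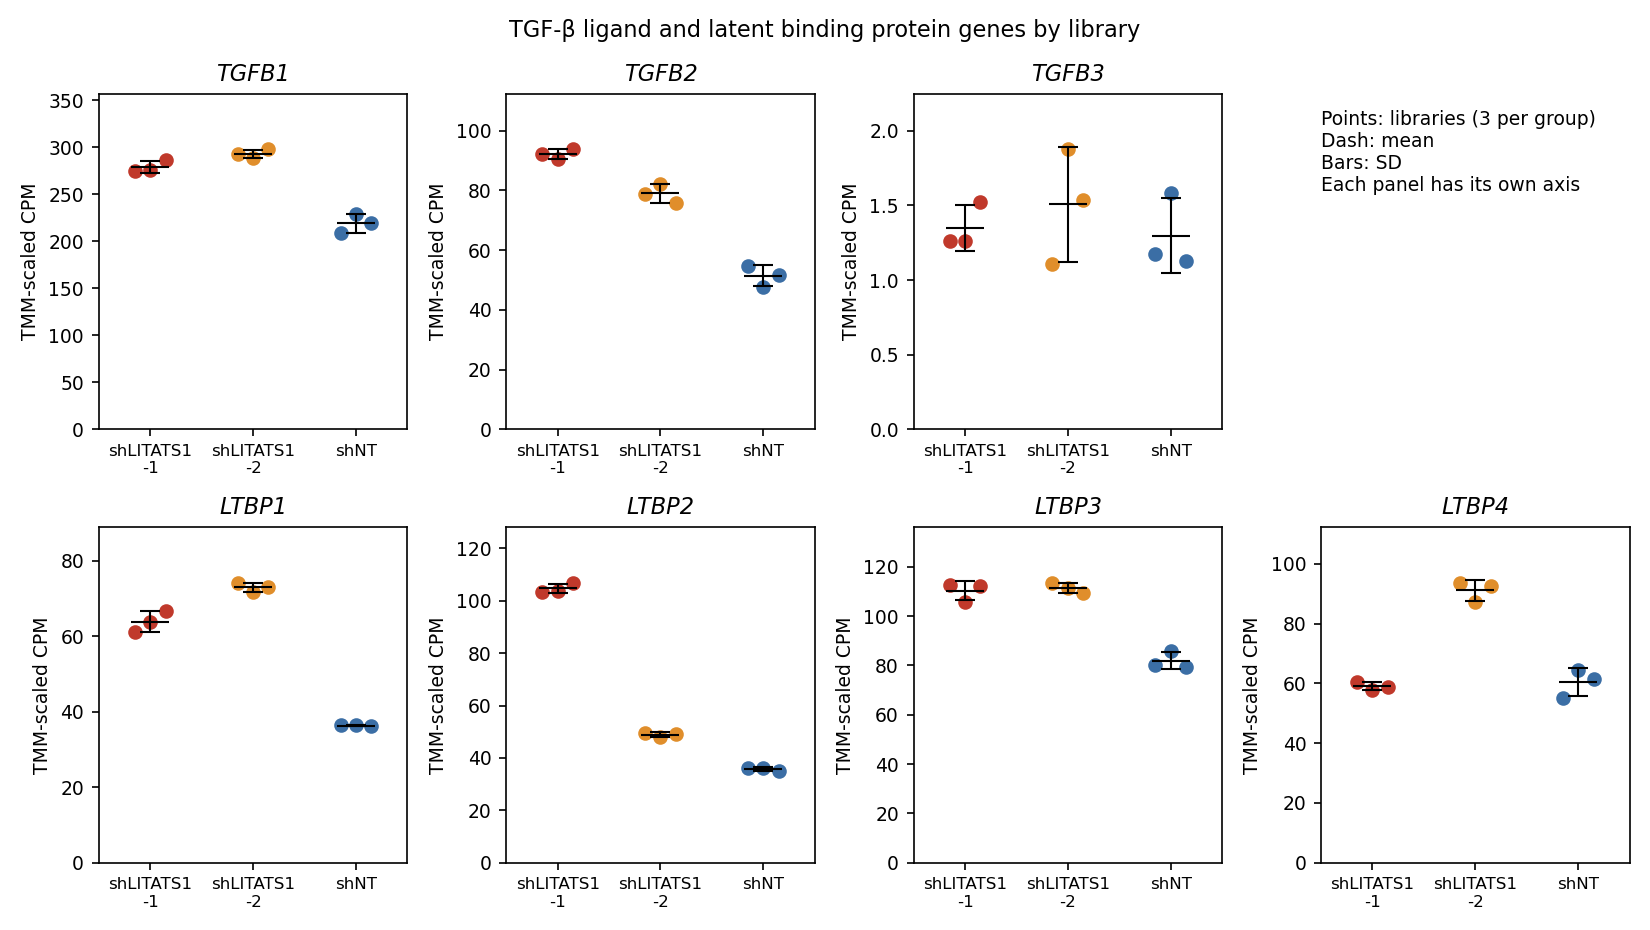
Level of each of the 7 genes in every library, in TMM-scaled CPM, for shLITATS1-1, shLITATS1-2 and shNT, with the mean and SD of 3 libraries; each panel has its own linear axis from 0. LTBP2 lies at 103 to 107 CPM with shLITATS1-1, 47.8 to 49.6 with shLITATS1-2 and 35.0 to 36.2 with shNT, and LTBP4 lies apart only with shLITATS1-2.

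TGFB1, the most widely expressed ligand, rose modestly with both hairpins. It had 274, 276 and 286 CPM in the 3 libraries with shLITATS1-1 and 293, 289 and 298 CPM with shLITATS1-2, against 209, 229 and 219 CPM with shNT. No hairpin library fell within the range of shNT. The log2 fold change was 0.35 (SE 0.032, edgeR adjusted p = 1.8e-15) with shLITATS1-1, a 1.27-fold rise, and 0.42 (SE 0.032, adjusted p = 3.67e-19) with shLITATS1-2, a 1.34-fold rise. Larger log2 fold changes were found in 22.2% of tested genes with the first hairpin and in 16.1% with the second.

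TGFB2, a ligand that needs betaglycan to bind its signalling receptors well and whose propeptide lacks the integrin-binding RGD motif, rose more than TGFB1. It had 92.3, 90.4 and 93.7 CPM with shLITATS1-1 and 78.8, 82.1 and 75.9 CPM with shLITATS1-2, against 54.7, 47.7 and 51.7 CPM with shNT. The 3 groups did not overlap, with shLITATS1-1 highest. The rise was 1.79-fold with shLITATS1-1 (log2 fold change 0.84, SE 0.044, edgeR adjusted p = 1.99e-27) and 1.54-fold with shLITATS1-2 (0.62, SE 0.045, adjusted p = 3.06e-20).

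TGFB3, the ligand best known from palate development, was close to the lowest level that could be tested. It had 24, 24 and 29 fragments with shLITATS1-1 and 23, 39 and 32 with shLITATS1-2, against 23, 31 and 22 with shNT, and all 3 groups overlapped. Neither difference passed, and at this depth changes of moderate size were not detectable. The log2 fold change was 0.057 with shLITATS1-1 (95% interval -0.44 to 0.55, edgeR adjusted p = 0.858) and 0.22 with shLITATS1-2 (-0.26 to 0.69, adjusted p = 0.455).

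LTBP1, the best studied carrier of latent TGF-β, which anchors it in the matrix, was higher with each hairpin. Its level was 61.1, 63.8 and 66.7 CPM with shLITATS1-1 and 74.1, 71.7 and 73.1 CPM with shLITATS1-2, against 36.5, 36.4 and 36.2 CPM with shNT. The shNT libraries lay close together, and the 3 groups did not overlap. The log2 fold change was 0.81 (SE 0.048, edgeR adjusted p = 7.37e-25) with shLITATS1-1, or 1.76-fold, and 1.01 (SE 0.046, adjusted p = 2.05e-30) with shLITATS1-2, or 2.01-fold. With the second hairpin this was the largest rise of the 7, exceeded by 3.80% of tested genes.

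LTBP2, the relative that does not carry the ligand, differed most between the hairpins. It stood at 103, 104 and 107 CPM with shLITATS1-1 and at 49.6, 47.8 and 49.2 CPM with shLITATS1-2, against 36.2, 36.1 and 35.0 CPM with shNT. The 3 groups did not overlap, with shLITATS1-1 far above the others. It rose 2.93-fold with shLITATS1-1 (log2 fold change 1.55, SE 0.044, edgeR adjusted p = 7.49e-43), and 2.34% of tested genes had a higher value. With shLITATS1-2 it rose 1.37-fold (0.45, SE 0.048, adjusted p = 6.81e-13), where 14.8% of tested genes had a higher value.

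LTBP3, a latent TGF-β carrier known for its part in skeletal and dental development, rose by nearly the same amount with each hairpin. It had 113, 106 and 112 CPM with shLITATS1-1 and 113, 111 and 109 CPM with shLITATS1-2, against 80.2, 85.9 and 79.5 CPM with shNT. The hairpin groups overlapped each other and neither reached down to shNT. The log2 fold change was 0.43 (SE 0.039, edgeR adjusted p = 9.35e-16) with shLITATS1-1 and 0.44 (SE 0.039, adjusted p = 2.01e-16) with shLITATS1-2, or 1.35-fold and 1.36-fold.

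LTBP4, which has a role in elastic fibre assembly and binds latent TGF-β1 less efficiently than LTBP1, was higher with shLITATS1-2. It had 60.6, 57.8 and 58.8 CPM with shLITATS1-1 and 93.6, 87.0 and 92.7 CPM with shLITATS1-2, against 55.2, 64.6 and 61.6 CPM with shNT. All libraries with shLITATS1-1 lay inside the range of shNT, and all with shLITATS1-2 lay above it. With shLITATS1-1 the log2 fold change was -0.033 and did not pass (95% interval -0.13 to 0.060, edgeR adjusted p = 0.557). With shLITATS1-2 it was 0.59 (SE 0.044, adjusted p = 2.4e-19), or 1.51-fold.

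**Figure D2:**
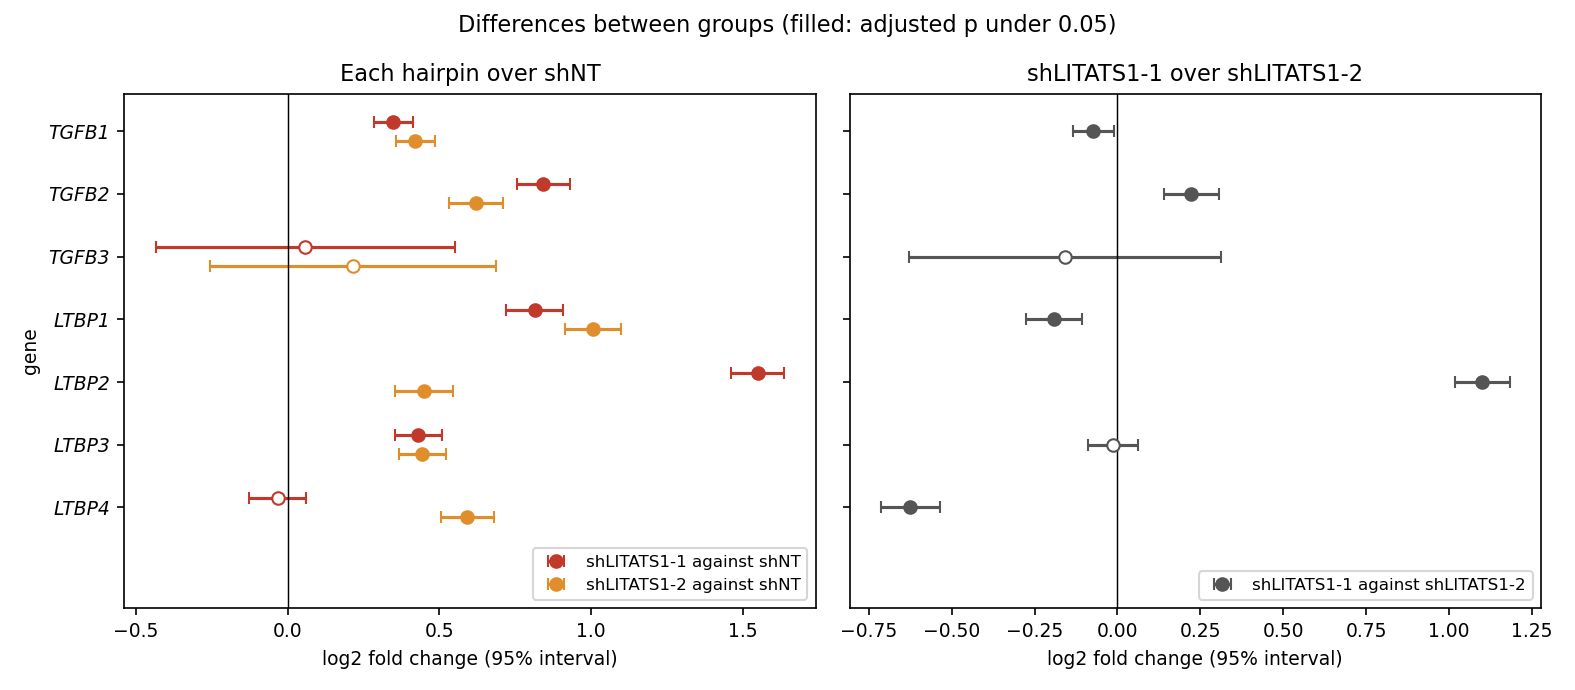
Log2 fold change of each gene with its 95% interval from edgeR's quasi-likelihood fit, each hairpin over shNT (left) and shLITATS1-1 over shLITATS1-2 (right); filled points had an adjusted p under 0.05. LTBP2 (1.10) and LTBP4 (-0.62) have the largest differences between the hairpins, in opposite directions, and the TGFB3 intervals are the widest.

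The hairpins were also compared directly, to ask where the effects on these genes differed. Of the 7 genes, 5 differed between shLITATS1-1 and shLITATS1-2, where 60.9% of all tested genes did, and the same 5 did not overlap between the groups, as was so for 64.2% of tested genes. LTBP2 was 2.14-fold higher with shLITATS1-1 (log2 difference 1.10, SE 0.042, edgeR adjusted p = 1.63e-35), and TGFB2 was 1.17-fold higher (0.22, SE 0.041, adjusted p = 3.32e-06). LTBP4 was lower with shLITATS1-1, by -0.62 on the log2 scale (SE 0.044, adjusted p = 2.37e-20), and LTBP1 by -0.19 (SE 0.043, adjusted p = 8.12e-05). TGFB1 was lower by -0.072 (SE 0.031, adjusted p = 0.0411), a call that was lost in 8 alternative fits, with adjusted p up to 0.170, and at a threshold of 0.01.

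LTBP3 differed between the hairpins by -0.013 (95% interval -0.088 to 0.061, edgeR adjusted p = 0.779), which did not pass. Under scaling by library size alone, the difference was -0.14 and passed (adjusted p = 0.000546). The same scaling shrank the TGFB2 difference to 0.092 (edgeR adjusted p = 0.0446) and widened that of TGFB1 to -0.20 (adjusted p = 4.47e-08). With that scaling the median over all tested genes shifted by -0.13 here and by 0.11 with shLITATS1-2 against shNT. The share of calls that were higher became 32.3% between the hairpins, against 49.6% under the trimmed-mean (TMM) scaling, and 67.1% against 49.0% with shLITATS1-2 over shNT. The calls of the 7 genes against shNT were the same under both scalings. TGFB3 differed by -0.16 between the hairpins (95% interval -0.63 to 0.31) and did not pass.

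Levels of different genes were compared as RPKM, that is, CPM per kilobase of exon in GENCODE 29. TGFB1 was the highest of the 7 in every group, at 86.2 ± 2.02 RPKM with shLITATS1-1, 90.6 ± 1.33 with shLITATS1-2 and 67.7 ± 3.07 with shNT (SD, n = 3 each). TGFB2 came next, at 17.9 ± 0.317, 15.3 ± 0.601 and 9.97 ± 0.682 RPKM in the same groups. TGFB3 was the lowest, at 0.275 ± 0.031, 0.307 ± 0.0781 and 0.264 ± 0.051 RPKM.

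The order of the binding proteins was not the same in the 3 groups. With shLITATS1-1 it ran LTBP2 (11.5 ± 0.201 RPKM), LTBP3 (10.7 ± 0.373), LTBP1 (8.72 ± 0.381) and LTBP4 (7.29 ± 0.17), and the ranges of neighbours did not overlap. With shLITATS1-2 it ran LTBP4 (11.2 ± 0.437), LTBP3 (10.8 ± 0.2), LTBP1 (9.96 ± 0.165) and LTBP2 (5.38 ± 0.0991), and LTBP4 and LTBP3 overlapped. With shNT it ran LTBP3 (7.95 ± 0.338), LTBP4 (7.46 ± 0.589), LTBP1 (4.96 ± 0.0215) and LTBP2 (3.94 ± 0.0741), and LTBP3 and LTBP4 overlapped. LTBP2 was thus first of the 4 with shLITATS1-1 and last with shLITATS1-2 and with shNT. The order depends on the length used: per length of the longest transcript LTBP3 led the 4 in every group and stood above TGFB2. By that length LTBP4 also stood above TGFB2 with shLITATS1-2 (18.1 against 15.6) and with shNT (12.0 against 10.2), but not with shLITATS1-1.

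**Figure D3:**
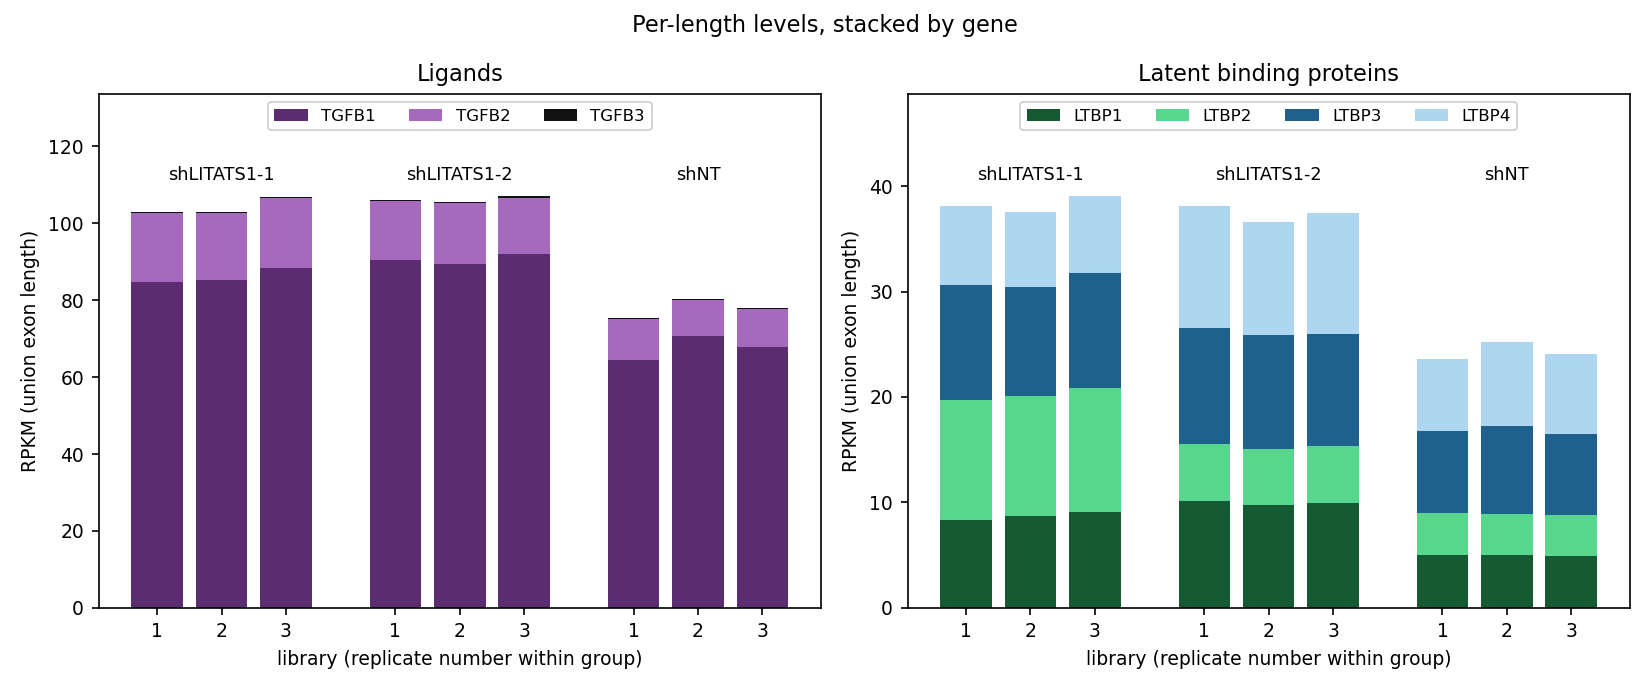
RPKM of the 3 ligands (left) and of the 4 latent binding proteins (right), stacked by gene, for each library of shLITATS1-1, shLITATS1-2 and shNT. The ligand sums reach 103 to 107 RPKM in both hairpin groups and 75.4 to 80.3 with shNT, and LTBP2 takes 30.1% of the binding protein sum with shLITATS1-1, 14.4% with shLITATS1-2 and 16.2% with shNT.

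The mix of ligands and of binding proteins was set out within each library. TGFB2 made up 17.1% ± 0.228 of the summed ligand RPKM with shLITATS1-1 and 14.4% ± 0.66 with shLITATS1-2, against 12.8% ± 1.27 with shNT (SD, n = 3 each). The share with shLITATS1-1 was 4.32 percentage points above shNT and 2.72 above shLITATS1-2, with no overlap and an exact two-sided permutation p of 0.1, the smallest that 3 against 3 libraries allow. With shLITATS1-2 it was 1.60 points above shNT, the groups overlapped and the exact permutation p was 0.2. That last difference was 0.957 points without shNT replicate 2 and 2.23 points without shNT replicate 1.

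The summed RPKM of the binding proteins was 38.2 ± 0.741 with shLITATS1-1 and 37.4 ± 0.766 with shLITATS1-2, against 24.3 ± 0.855 with shNT. The makeup behind these similar sums differed. LTBP2 contributed 30.1% ± 0.292 with shLITATS1-1, 14.4% ± 0.0792 with shLITATS1-2 and 16.2% ± 0.625 with shNT, and LTBP4 contributed 19.1% ± 0.5, 30.1% ± 0.629 and 30.7% ± 1.52. Counting only LTBP1, LTBP3 and LTBP4, which can carry the ligand, there was 0.256 ± 0.00337 RPKM per ligand RPKM with shLITATS1-1 and 0.301 ± 0.00604 with shLITATS1-2, against 0.261 ± 0.00302 with shNT. These sums and shares are descriptions with no test, and they depend on the length used. Per longest transcript, a length tried after seeing the data, the binding protein sums were 58.9 with shLITATS1-1 and 60.4 with shLITATS1-2, against 40.4 with shNT. The LTBP2 share was then 20.8% and 9.45% with the hairpins and 10.4% with shNT, and the ratio per ligand 0.391 and 0.448 with the hairpins and 0.403 with shNT.

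The genes whose levels followed each member most closely were ranked by Pearson's r of log2 CPM over the 9 libraries, among 12308 genes with a mean of at least 2 CPM. The 9 points form 3 groups, so a high r mostly means that 3 group levels are alike, and no p is given. CCL5, PDZK1IP1 and NRP2 were closest to LTBP2 (r from 0.998 to 0.999), and ATP2A2, DAP and the fibronectin receptor gene ITGA5 to LTBP1 (0.998). PLXND1, TADA3 and MMP2 were closest to TGFB1 (0.992 to 0.994), PHLDB2, NIPAL4 and the collagen receptor gene ITGA11 to TGFB2 (0.991 to 0.993), and COL7A1, NIBAN2 and ITGB4 to LTBP3 (0.993). NSMF, CHFR and TIMM23B were closest to LTBP4 (0.990 to 0.992). TGFB3, with few counts, reached 0.812 to 0.887 with GGT8P, FAM86B1 and ZNF304. Among the 7 themselves, r was 0.984 between TGFB1 and LTBP1, 0.865 between TGFB2 and LTBP2 and -0.27 between LTBP2 and LTBP4.

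For the lists that follow, the counts stand beside 30.5% of all tested genes called higher and 30.5% lower with shLITATS1-1, and 27.8% higher and 28.9% lower with shLITATS1-2. All of these lists were chosen with earlier results of these data known, so their counts are descriptions and not independent evidence. Of 24 genes that process the precursor or release active ligand, 21 were tested, and 16 rose and 1 fell with shLITATS1-1, with a median log2 fold change of 1.17, while 14 rose and 1 fell with shLITATS1-2, with a median of 0.42. FURIN, the main convertase of the precursor, averaged 271 CPM with shLITATS1-1 and 208 with shLITATS1-2, against 102 with shNT (log2 fold changes 1.41 and 1.03). BMP1, a protease that cuts LTBP1, averaged 195 and 182 CPM with the hairpins, against 83.2 with shNT (1.23 and 1.13). THBS1, thrombospondin 1, averaged 238.5 and 145.3 CPM, against 75.6 with shNT (1.66 and 0.94).

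Integrin subunits of the list varied in how the hairpins compared. ITGAV, the shared α subunit, averaged 621 CPM with shLITATS1-1 and 469 with shLITATS1-2, against 330.5 with shNT (log2 fold changes 0.91 and 0.50). ITGB6 averaged 16.6 CPM with shLITATS1-1 and 3.10 with shLITATS1-2, against 2.06 with shNT (3.00 and 0.58). ITGB8, whose product pairs with that of ITGAV in an activator of latent TGF-β, was at 15.9 and 6.06 CPM with the hairpins and 6.96 with shNT. It rose with shLITATS1-1 (1.19) and stood at -0.20 with shLITATS1-2, which did not pass. ITGB3 rose more with shLITATS1-1 (1.49 and 0.21) and ITGB1 more with shLITATS1-2 (0.30 and 0.53), each with a called difference between the hairpins. ITGB5 rose slightly with both (0.093 and 0.095), and its difference between the hairpins, -0.0025, did not pass. The metalloproteinase genes MMP9 (2.61 and 2.39) and MMP2 (1.55 and 1.92) rose with both, MMP9 over only 0.188 CPM in shNT. CTSD fell by 0.23 with shLITATS1-1 and TLL1 fell by 1.17 with shLITATS1-2. TLL1 was low, at 0.818 CPM with shLITATS1-2, against 1.84 with shNT.

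Matrix proteins that hold the latent complex were mixed. Of 21, 14 were tested, with 8 higher and 3 lower with shLITATS1-1 (median 0.47) and 6 higher and 4 lower with shLITATS1-2 (median 0.24), where the share that was lower is close to that over all tested genes. FBN1, a fibrillin to which LTBPs bind, averaged 93.4 CPM with shLITATS1-1 and 43.6 with shLITATS1-2, against 20.4 with shNT (log2 fold changes 2.19 and 1.10). FBN2, another fibrillin gene, was more abundant and rose more with shLITATS1-2. It averaged 118 CPM with shLITATS1-1 and 176 with shLITATS1-2, against 106 with shNT (0.15 and 0.73). FN1, fibronectin, averaged 1247 and 554 CPM, against 471 with shNT (1.40 and 0.23). TGM2, a transglutaminase that crosslinks LTBP1 into the matrix, moved in opposite directions, with 2977 CPM with shLITATS1-1 and 1003 with shLITATS1-2, against 1204 with shNT (1.31 and -0.26). FBLN1 fell with both hairpins (-0.93 and -0.84), as did FBLN5 (-0.29 and -0.59). The microfibril gene MFAP5 (2.41) rose and EMILIN1 (-0.62) fell with shLITATS1-1, while ADAMTSL3 (1.27) rose and MFAP4 (-1.17) fell with shLITATS1-2. MFAP4 was higher with shLITATS1-1 (0.67). FBLN2 rose with both hairpins (0.63 and 0.86), and its difference between the hairpins, -0.23, did not pass. Levels in shNT were low, at 0.256 CPM for MFAP5, 0.802 for MFAP4, 0.956 for ADAMTSL3, 1.47 for FBLN2 and 3.12 for EMILIN1.

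Extracellular proteins that bind or limit TGF-β numbered 14, of which 8 were tested. With shLITATS1-1, 4 rose and none fell (median 0.31), led by LUM (2.95), which had 3.59 CPM with shLITATS1-1 and 0.461 CPM with shNT and is also one of the fibroblast markers. With shLITATS1-2, 2 rose and 3 fell (median 0.097), near the shares over all tested genes. VASN, a decoy that binds TGF-β, and CD109, a coreceptor that dampens signalling, rose there by 0.49 and 0.30, and TGFBR3, betaglycan, fell by 0.28, as did TSKU by 0.50, which rose by 0.24 with shLITATS1-1. HTRA1, a serine protease, rose by 0.37 with shLITATS1-1. HTRA3, a protease reported to limit TGF-β signalling, was higher with shLITATS1-1 (0.66) and lower with shLITATS1-2 (-0.51).

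Of 29 other ligands of the superfamily, 12 were tested. With shLITATS1-1, 5 rose and 3 fell (median 0.20), near the shares over all tested genes, and with shLITATS1-2, 1 rose and 1 fell (median 7.9e-06). BMP6 rose with both, at 51.5 and 31.1 CPM with the hairpins, against 15.8 CPM with shNT (log2 fold changes 1.70 and 0.98). The activin subunit genes went apart with shLITATS1-1, where INHBA reached 1.70 CPM, against 0.375 in shNT, and INHBB stood at 44.2 CPM, against 87.3 in shNT. GDF15 fell by 1.76 and BMP8B by 0.21 with shLITATS1-1, where BMP2 rose by 1.17. BMP4 was higher with shLITATS1-1 (0.36) and lower with shLITATS1-2 (-0.43).

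TGF-β/SMAD target genes stood beside these changes. Of 29, 28 were tested, with 27 higher and 1 lower with shLITATS1-1 (median 1.28) and 24 higher and 4 lower with shLITATS1-2 (median 0.82). Like the other lists, this one was drawn up with results of these libraries known, so its direction is not independent evidence. TAGLN, an actin-binding protein of contractile cells, reached 39.6 CPM with shLITATS1-1, against 3.69 in shNT, and ITGA5 reached 417 CPM with shLITATS1-2, against 97.4 in shNT. KANK4 and TIMP3 also ranked highest with both hairpins but rested on 0.273 and 0.427 CPM in shNT. SMAD6, an inhibitory SMAD, fell with both (-0.27 and -0.22). SNAI2, a repressor of epithelial genes, fell by 0.45 and NUAK1, a kinase, by 0.24 with shLITATS1-2, while both rose with shLITATS1-1 (0.96 and 0.28). SNAI2 was low, at 2.12 CPM with shLITATS1-2, against 2.90 with shNT, and its fall was near the threshold (edgeR adjusted p = 0.0346). Under scaling by library size alone, a check chosen after seeing the data, the counts with shLITATS1-2 became 24 higher and 2 lower for the targets, 16 and 1 for processing genes and 3 and 1 for other ligands. FN1 and MMP2 belong to 2 of these lists. FBN2, FURIN, ITGAV, ITGB1, ITGB3, ITGB5, ITGB8 and TGM2 were named after their values were seen. So were, for genes named for 1 hairpin only, the values given with the other.

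**Figure D4:**
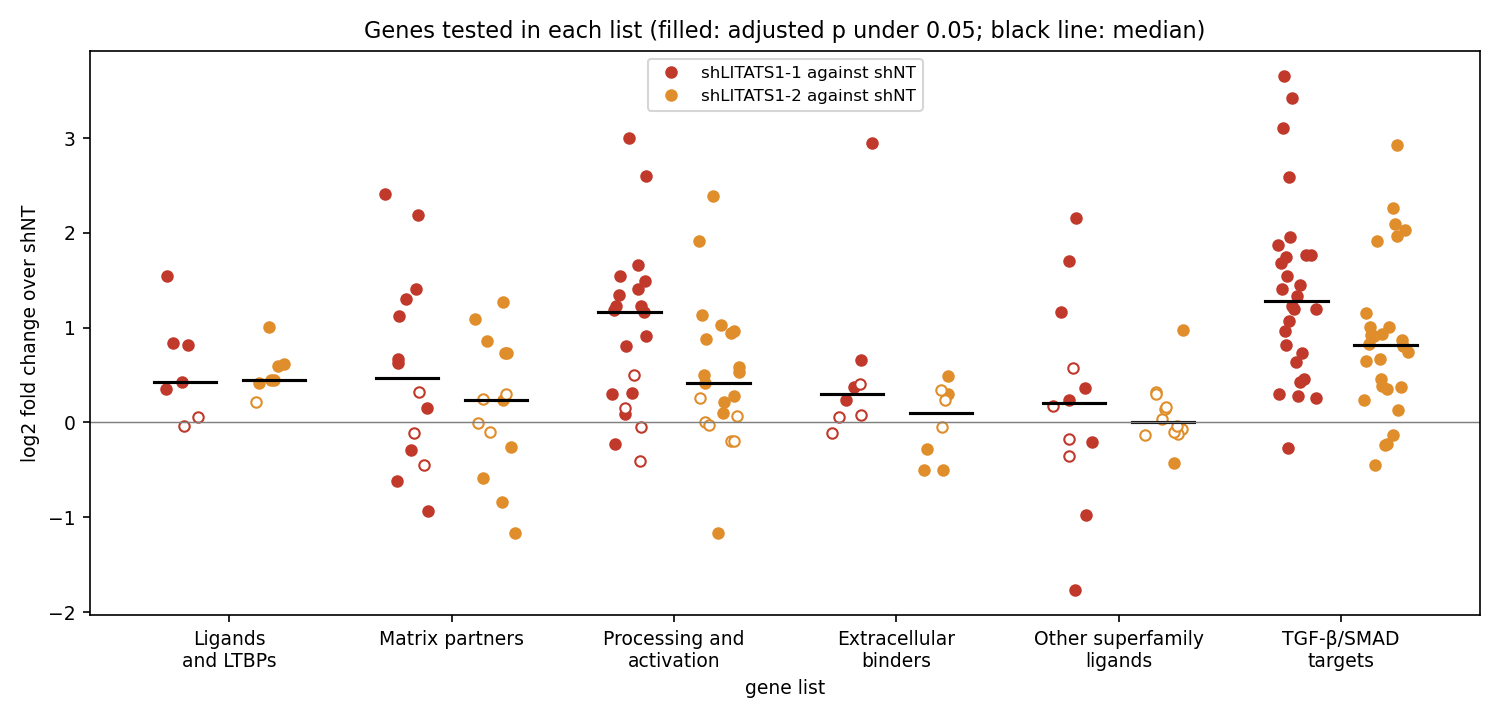
Log2 fold change over shNT for the 7 genes and for the tested genes of 5 lists around them, with shLITATS1-1 (red, left of each pair) and shLITATS1-2 (orange, right); filled points had an adjusted p under 0.05 and black lines are medians. Medians of the processing and activation genes are 1.17 and 0.42, and those of TGF-β/SMAD targets are 1.28 and 0.82.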

How the data were processed

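The deposited values are counts of fragments per gene, unnormalized, in 1 table for 9 libraries. The submitters' processing notes name HTSeq 0.12.4, STAR 2.7.5a, cutadapt 2.10 and FastQC, and the build GRCh38. The annotation release and strand setting were not stated there. Counter rows naming no gene (19.0% to 20.3% of fragments) were left out. Replicate pairs differed by more than sampling noise (chi-square per degree of freedom 1.47 to 2.72).

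Genes were kept by filterByExpr (minimum count 10), scaled by TMM and tested two-sided over all 9 libraries in 1 edgeR 4.0.16 quasi-likelihood fit (robust, 6 residual degrees of freedom, R 4.3.3), with adjusted p under 0.05 over 15500 genes. The procedure was also run on simulated data, in which far fewer genes changed than were called here, evenly up and down. That simulation therefore could not test the choice of scaling. DESeq2 1.42.0, other scalings and filters, a replicate block, fits of 6 libraries, a threshold of 0.01 and omission of each library were alternatives. RPKM used exon lengths of GENCODE 29.

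Symbols came from an identifier table, LITATS1 from its RefSeq synonym, and promoters from RefSeq (7 of 7 genes matched). The 7 genes, lists and tests were chosen with earlier results of these data known. Named list genes were the up to 3 highest and 3 lowest called per list and hairpin, and the 3 genes most correlated with each member.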

Additional observations from a re-analysis of the deposited data

Results flagged for a closer look

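The direct test between the LITATS1 hairpins called 5 of the 7 genes (edgeR's quasi-likelihood test, adjusted p under 0.05). The same test called 60.9% of all tested genes, so such a difference was common. On the log2 scale, shLITATS1-1 over shLITATS1-2, the difference was 1.10 for LTBP2, 0.22 for TGFB2, -0.072 for TGFB1, -0.19 for LTBP1 and -0.62 for LTBP4. For LTBP2 and TGFB2 the rise over shNT was larger with shLITATS1-1. The TGFB1 call was lost in 8 alternative fits and at a threshold of 0.01. Scaled by library size alone, the difference was -0.20 for TGFB1 and 0.092 for TGFB2. For LTBP1 the rise was larger with shLITATS1-2, and LTBP4 rose with shLITATS1-2, while with shLITATS1-1 its difference from shNT did not pass. The level of LITATS1 itself differed between the hairpins by 0.14 (SE 0.16, adjusted p = 0.438 in the same test), which did not pass. What else differs between the hairpins was not tested.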

How the results depend on the processing

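Under every alternative run (DESeq2, DESeq2's size factors, library size alone, no filter, a filter of 50 counts, which drops TGFB3, the 6 libraries compared, a threshold of 0.01 and omission of each library), 5 of the 7 genes were called with shLITATS1-1 and 6 with shLITATS1-2, all higher. Between the hairpins 4 to 6 were called. The call for TGFB1 there was lost with DESeq2 (-0.067), its size factors (-0.067), no filter (-0.077), the replicate block (-0.073) and without shLITATS1-1 replicate 1 (-0.058) or 2 (-0.062) or shLITATS1-2 replicate 1 (-0.075) or 3 (-0.062), with adjusted p of 0.0589 to 0.170. It was also lost at the threshold of 0.01. Same-numbered libraries did not deviate together (r from -0.061 to 0.036, 9 pairs), and with the replicate block 5, 6 and 4 of the 7 genes and 9295, 8630 and 9264 of all genes were called. Leaving out 1 library gave 8848 to 9612, 8133 to 8800 and 8772 to 9670 genes in the 3 comparisons. The main fit called 9449, 8787 and 9439 of the 15500 tested genes in the same order. Scaling by library size alone called 6054 of all genes higher and 2968 lower with shLITATS1-2 against shNT. Per longest transcript, TGFB2's share differed by 3.91, 1.45 and 2.47 points. Depth limits TGFB3, with 22 to 39 fragments per library.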

Other observations

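Few fragments were assigned to transcripts annotated beside the ligand genes. TGFB2-AS1, antisense at the start of TGFB2, had 1 to 4 fragments per library with shLITATS1-1 and 4 to 9 with shLITATS1-2, against 4 to 8 with shNT, too few to be tested. TGFB2-OT1 and TGFB3-AS1 were listed at 0 in all 9 libraries. TGFB2-OT1 lies on the same strand over exons of TGFB2, where fragments can be set aside as ambiguous, so its 0 does not show that the transcript was absent.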
